A study of Saccharomyces cerevisiae with 12 samples.

Results

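The tricarboxylic acid (TCA) cycle, the glyoxylate cycle and gluconeogenesis were followed through 31 genes of the yeast Saccharomyces cerevisiae, out of 5656 genes measured. The 31 genes were listed with earlier results of these data known. Their counts are therefore descriptive beside the shares of all genes given below. A listed gene was taken if a probe set of the array carried its symbol alone, and each of the 31 was read from 1 probe set. By role, 17 encode mitochondrial enzymes of the TCA cycle, 8 belong to the glyoxylate cycle or are isoenzymes outside the mitochondrial matrix, 4 serve gluconeogenesis or the carboxylation of pyruvate, and 2 are carriers of carbon sources. The data are 12 arrays of the Affymetrix type YG-S98, with 3 in each of 4 groups: anc1Δ cells with MMS (methyl methanesulfonate, a DNA-methylating agent), anc1Δ cells without MMS, wildtype cells with MMS and wildtype cells without MMS. The strains are haploid MATa cells of the BY4741 background, so that all groups carry his3Δ1, leu2Δ0, met15Δ0 and ura3Δ0. The anc1Δ strain also lacks ANC1 (TAF14), a subunit that TFIID, TFIIF and several chromatin complexes have in common, and the methods give its deletion marker as URA3 in one place and as G418 resistance in another. All cultures grew to mid-log phase in YPD, a rich medium with glucose. The untreated arrays came from 3 colonies of each strain. How much MMS the treated cultures received, for how long, and whether they were independent cultures is not stated in the sources used here. Where they enter, a p-value therefore reflects only the scatter of these samples, and this may be technical.

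The TCA cycle oxidizes acetyl units in the mitochondrial matrix and supplies 2-oxoglutarate for amino acid synthesis. The glyoxylate cycle bypasses its decarboxylating steps, so that cells on acetate or ethanol can build sugars, and phosphoenolpyruvate carboxykinase (PCK1) and fructose-1,6-bisphosphatase (FBP1) then carry the carbon back to glucose. In yeast growing on glucose most genes of the glyoxylate cycle and of gluconeogenesis are repressed, and they are known for their strong derepression when glucose runs out. Genes of the first part of the cycle, CIT1, ACO1, IDH1 and IDH2, and also CIT2 and PYC1, are known targets of the retrograde pathway, by which the transcription factors Rtg1 and Rtg3 respond to the state of the mitochondria.

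Values are RMA intensities as deposited, linear and not log-transformed, and limma was fitted to their log2. A gene is called here at a Benjamini-Hochberg adjusted p under 0.05 over all 9275 probe sets tested and a fold of at least 1.5. The titles of 3 wildtype arrays call them treated where their source names call them untreated, the descriptions of 3 anc1Δ arrays name wildtype, and the titles were followed. ANC1 had intensities between 6.87 and 15.7 on the anc1Δ arrays and between 175 and 356 on the wildtype arrays. The 6 markers of MATa cells lay at percentile 33.2 or higher of all probe sets in every group mean. All 6 were lower in anc1Δ than in wildtype, both with and without MMS. Without MMS the means were 77.0 in anc1Δ against 918 in wildtype for STE2, 79.8 against 1090 for BAR1 and 528 against 4511 for MFA1. Of 4 MATalpha markers, MF(ALPHA)1, MF(ALPHA)2 and STE3 lay at percentile 29.9 or lower in every group mean and SAG1 at percentile 42.2 to 63.6. The actin 3' to 5' ratio, which rises where RNA is degraded or copied incompletely, was 3.43 to 4.0 in anc1Δ with MMS and 1.74 to 1.85 without, and 3.31 to 3.85 in wildtype with MMS and 1.47 to 1.68 without. It thus moved with MMS in both strains and less with the strain, and its part in the results was not tested. The comparisons that follow share arrays with each other wherever a group enters more than one of them. The number of arrays limits the precision.

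Without MMS, 11 of the 31 genes were higher in anc1Δ than in wildtype by limma, and 0 were lower. The other test run, the local pooled error (LPE) test, gave 0 lower too, and 1 gene, LSC1, had a negative change at an unadjusted limma p under 0.05. Over all genes 11.1% were called higher and 12.4% lower, so that the members were above this share on one side and below it on the other. The 11 were spread over the roles, with 3 of 17 TCA cycle enzymes, 4 of 8 genes of the glyoxylate cycle and its isoenzymes, 3 of 4 genes of gluconeogenesis and carboxylation, and 1 of 2 carriers. The median log2 change was 0.38 over the 31 genes and -0.10 over all genes. In 23 of the 31 the anc1Δ arrays all lay above the wildtype arrays, and in 1, LSC1, all below, against 23.5% and 37.2% of all genes. An array averages over the culture, so that a larger share of cells in a given state and more RNA in each cell cannot be told apart.

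**Figure D1:**
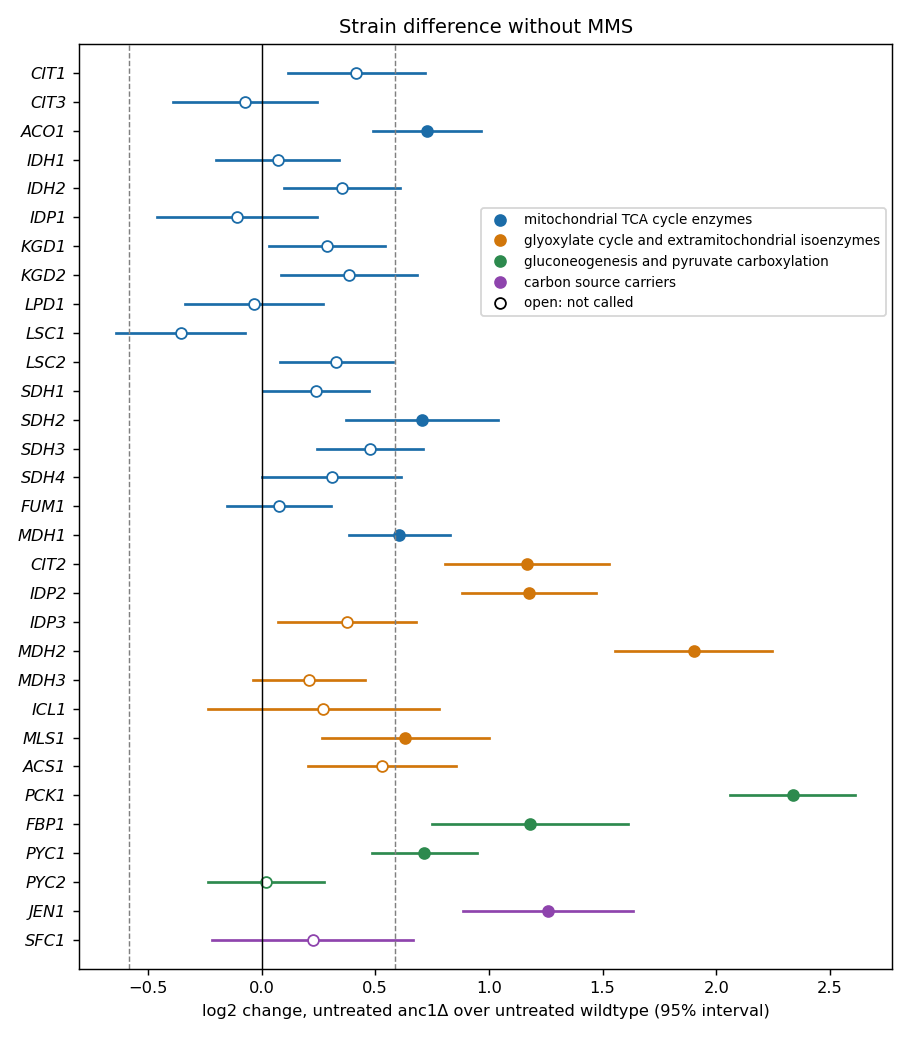
Log2 change of each of the 31 genes, untreated anc1Δ over untreated wildtype (x axis), with its 95% confidence interval from limma on 3 arrays a strain. Filled points are called, dashed lines mark a 1.5-fold change, and colours give the role of the gene. PCK1 lies farthest to the right at 2.34, MDH2 follows at 1.90, and no gene is called on the left.

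The largest of these rises was that of PCK1, in gluconeogenesis. PCK1 (YKR097W), which makes phosphoenolpyruvate from oxaloacetate, had intensities of 417, 425 and 390.5 in untreated anc1Δ, against 93.7, 75.0 and 76.3 in untreated wildtype. The arrays of the strains lay far apart, with the lowest anc1Δ array more than 4 times as high as the highest wildtype array, and the fold was 5.05 (log2 change 2.34, SE 0.12, adjusted p = 5.98e-06). FBP1 (YLR377C), whose product removes a phosphate from fructose-1,6-bisphosphate, had 38.1, 52.9 and 54.0 in anc1Δ, against 23.6, 16.7 and 23.7 in wildtype. The groups did not overlap, but wildtype lay at percentile 18.9 of the probe sets, among the dim ones of the array (log2 change 1.18, SE 0.19, adjusted p = 0.00175). JEN1 (YKL217W), the lactate and pyruvate permease of the plasma membrane, had 85.1, 79.7 and 77.3 in anc1Δ, against 40.9, 35.7 and 26.3 in wildtype. Every anc1Δ array was well above every wildtype array (log2 change 1.26, SE 0.16, adjusted p = 6.78e-04). SFC1 (YJR095W), the carrier that exchanges succinate for fumarate across the inner mitochondrial membrane, had 12.6, 21.6 and 14.5 in anc1Δ and 14.7, 13.4 and 12.5 in wildtype, near the floor of the arrays in both, and was not called.

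Among the isoenzymes outside the matrix, MDH2, CIT2 and IDP2 were each more than 2-fold higher in anc1Δ. MDH2 (YOL126C), the cytosolic malate dehydrogenase of gluconeogenesis, had 3656, 3904 and 3522 in untreated anc1Δ, against 1196, 1004 and 805 in untreated wildtype. The groups were far apart, with a fold of 3.73 (log2 change 1.90, SE 0.15, adjusted p = 6.00e-05). CIT2 (YCR005C), the peroxisomal citrate synthase and the classic reporter of retrograde signalling, had 329.6, 373 and 437 in anc1Δ, against 192, 177 and 139 in wildtype, a fold of 2.25 (log2 change 1.17, SE 0.16, adjusted p = 8.05e-04). IDP2 (YLR174W), the cytosolic NADP-dependent isocitrate dehydrogenase, had 101, 113 and 104 in anc1Δ, against 55.2, 42.7 and 43.5 in wildtype (log2 change 1.18, SE 0.13, adjusted p = 3.02e-04). In both genes the groups did not overlap.

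The enzymes particular to the glyoxylate cycle differed less. MLS1 (YNL117W), malate synthase, had 60.4, 76.9 and 75.1 in untreated anc1Δ, against 55.2, 38.7 and 43.7 in untreated wildtype. The groups were separated only narrowly, by the lowest anc1Δ array and the highest wildtype array (log2 change 0.63, SE 0.16, adjusted p = 0.0145), and the call was lost without wildtype untreated replicate 2 (0.52) or without anc1 untreated replicate 2 (0.57) or 3 (0.59, adjusted p = 0.0592 from limma). ICL1 (YER065C), isocitrate lyase, had 107, 105 and 100.4 in anc1Δ and 129, 73.8 and 67.9 in wildtype. Wildtype replicate 1 was above all anc1Δ arrays, and ICL1 was not called. ACS1 (YAL054C), the acetyl-CoA synthetase that is repressed by glucose, had 168, 204 and 180.0 in anc1Δ, against 152, 114 and 119 in wildtype. The groups did not overlap and the fold fell short of the limit, and ACS1 was called when wildtype untreated replicate 1 was left out (0.66), and likewise without anc1 untreated replicate 1 (0.59). With all arrays it was called by the LPE test and after a further quantile normalization (both 0.60). The peroxisomal MDH3 (YDL078C), at 869.8 ± 52.6 in anc1Δ and 753 ± 51.5 in wildtype, and the peroxisomal IDP3 (YNL009W), at 68.3 ± 10.5 and 52.3 ± 3.68 in the same order (SD, n = 3), were not called either.

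The 2 pyruvate carboxylase genes differed from each other. PYC1 (YGL062W) had 773, 789 and 800.1 in untreated anc1Δ, against 459.9, 515 and 464 in untreated wildtype. The groups were well separated, at a fold of 1.64 (log2 change 0.72, SE 0.10, adjusted p = 9.65e-04). PYC2 (YBR218C), whose product catalyses the same replenishing of oxaloacetate in the cytosol, had 1104, 980.2 and 1046 in anc1Δ and 1062, 1096 and 931 in wildtype, with the arrays of the strains interleaved. The genes are close paralogues, and cross-hybridization between them was not tested here, although neither probe set carries the suffix that marks shared sequence.

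Within the TCA cycle ACO1, SDH2 and MDH1 were called higher in untreated anc1Δ and the other 14 enzymes were not called. ACO1 (YLR304C), aconitase, had 1927, 1769 and 2013 in anc1Δ, against 1107, 1202 and 1132 in wildtype (log2 change 0.73, SE 0.10, adjusted p = 0.00103). SDH2 (YLL041C), the iron-sulfur subunit of succinate dehydrogenase, had 1242, 1239 and 1339 in anc1Δ, against 901, 834 and 630.3 in wildtype (log2 change 0.71, SE 0.15, adjusted p = 0.00603). MDH1 (YKL085W), the mitochondrial malate dehydrogenase, had 2854, 2738 and 2843 in anc1Δ, against 1931, 1836 and 1778 in wildtype (log2 change 0.61, SE 0.10, adjusted p = 0.00186). In all 3 genes the groups did not overlap. Wildtype replicate 3 was the lowest in SDH2 and MDH1, and both calls were lost without it, at 0.55 and 0.58. SDH2 was also lost in the LPE test (0.57) and MDH1 after a further quantile normalization (0.56). The log2 changes of the 20 genes of the whole set that were not called lay between -0.35 and 0.53. The lowest of these was LSC1, the alpha subunit of succinyl-CoA ligase, at 1077, 926 and 924 in anc1Δ, against 1109, 1384 and 1256 in wildtype.

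In wildtype cells MMS was followed by a split within the set, with 6 genes higher and 6 lower. Over all genes 27.7% were called higher and 20.8% lower, so that the count of higher members was below this share and that of lower members near it. In 9 of the 31 the treated arrays all lay above the untreated ones and in 13 all below, against 41.9% and 32.7% of all genes. The higher genes were CIT1, CIT2, IDH1, IDP2, PCK1 and PYC1, and the lower ones ACO1, MDH2 and all 4 subunits of succinate dehydrogenase. The median log2 change was -0.15 over the set and 0.08 over all genes. The actin 3' to 5' ratio moved with this comparison and with all genes named in it, at 3.31 to 3.85 with MMS and 1.47 to 1.68 without.

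CIT2 had 526, 584 and 521 in wildtype with MMS, against 192, 177 and 139 without, a fold of 3.23 (log2 change 1.69, SE 0.13, adjusted p = 1.23e-07). IDP2 had 124, 122 and 117 with MMS, against 55.2, 42.7 and 43.5 without (log2 change 1.37, SE 0.11, adjusted p = 1.55e-07). PYC1 had 1313, 1280.2 and 1166 with MMS, against 459.9, 515 and 464 without, a fold of 2.61 (log2 change 1.39, SE 0.09, adjusted p = 2.03e-08). In these 3 genes every treated array was more than 2-fold above the highest untreated array. PCK1 had 173, 171 and 165 with MMS, against 93.7, 75.0 and 76.3 without (log2 change 1.06, SE 0.17, adjusted p = 1.22e-04), and remained below every anc1Δ array. CIT1 (YNR001C), the mitochondrial citrate synthase, had 2858, 2843 and 2571 with MMS, against 1639, 1703 and 1279 without (log2 change 0.85, SE 0.11, adjusted p = 1.34e-05). The treated arrays again lay above the untreated ones without overlap.

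The genes of NAD-dependent isocitrate dehydrogenase were at the limit of the call. IDH1 (YNL037C) had 889.6, 638 and 791 in wildtype with MMS, against 438, 526 and 518 without (log2 change 0.64, SE 0.13, adjusted p = 8.93e-04). The groups did not overlap, but the call was lost without wildtype untreated replicate 1 (0.55) or wildtype MMS replicate 1 (0.53), with each array centred on its median (0.52) and after a further quantile normalization (0.55). IDH2 (YOR136W), the other subunit, had 2957, 3071 and 3031 with MMS, against 1997, 2189 and 2389 without. All its treated arrays were above the untreated ones, at a fold under the limit except after a further quantile normalization (0.60). The mitochondrial NADP-dependent enzyme IDP1 (YDL066W) had 823, 874 and 811 with MMS, against 618, 703 and 481 without, again without overlap and below the fold limit, and it was called without wildtype untreated replicate 2 (0.62).

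Succinate dehydrogenase, which links the TCA cycle to the respiratory chain, was lower in all of its 4 genes. SDH1 (YKL148C), the flavoprotein, had 245, 216 and 201 in wildtype with MMS, against 382, 349.8 and 346 without (log2 change -0.71, SE 0.09, adjusted p = 1.59e-05). SDH2 had 489, 468 and 429 with MMS, against 901, 834 and 630.3 without (log2 change -0.76, SE 0.12, adjusted p = 9.19e-05). The membrane anchors SDH3 (YKL141W) and SDH4 (YDR178W) had log2 changes of -0.63 and -0.67, and fell below the fold limit without wildtype MMS replicate 3 (-0.56) and without wildtype untreated replicate 1 (-0.55) in that order. No subunit had overlapping groups.

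ACO1 and MDH2 were lower as well. ACO1 had 616, 681 and 691 in wildtype with MMS, against 1107, 1202 and 1132 without (log2 change -0.79, SE 0.09, adjusted p = 3.85e-06). MDH2 had 414, 373 and 336 with MMS, against 1196, 1004 and 805 without, and its fold of 2.65 was the largest fall of the set (log2 change -1.41, SE 0.13, adjusted p = 7.00e-07). Each gene was lower on all treated arrays than on any untreated one. JEN1 had 20.8, 24.2 and 24.6 with MMS, against 40.9, 35.7 and 26.3 without, and was called only when wildtype untreated replicate 3 (-0.72) or wildtype MMS replicate 3 (-0.59) was left out or each array was centred on its median (-0.66). FBP1 had 15.8, 14.3 and 16.2 with MMS, against 23.6, 16.7 and 23.7 without, and was called without wildtype untreated replicate 2 (-0.61).

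In anc1Δ cells MMS was followed by lower levels in 12 of the 31 genes and a higher level in CIT2 alone. Over all genes 15.7% were called lower and 16% higher, so that the members were above the share on the lower side and below it on the higher side. The 12 were ACO1, KGD1, KGD2, LPD1, the 4 SDH genes, MDH2, ACS1, JEN1 and PYC2, which make up 8 of the 17 TCA cycle enzymes and 2 of the 8 genes of the glyoxylate cycle and its isoenzymes. In 23 of the 31 genes the treated arrays all lay below the untreated ones, against 36.1% of all genes, and in 3, namely CIT2, IDP2 and PYC1, all above, against 34.6%. The median log2 change was -0.47 over the set and -0.01 over all genes. The actin 3' to 5' ratio moved with this comparison too, at 3.43 to 4.0 with MMS and 1.74 to 1.85 without.

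**Figure D2:**
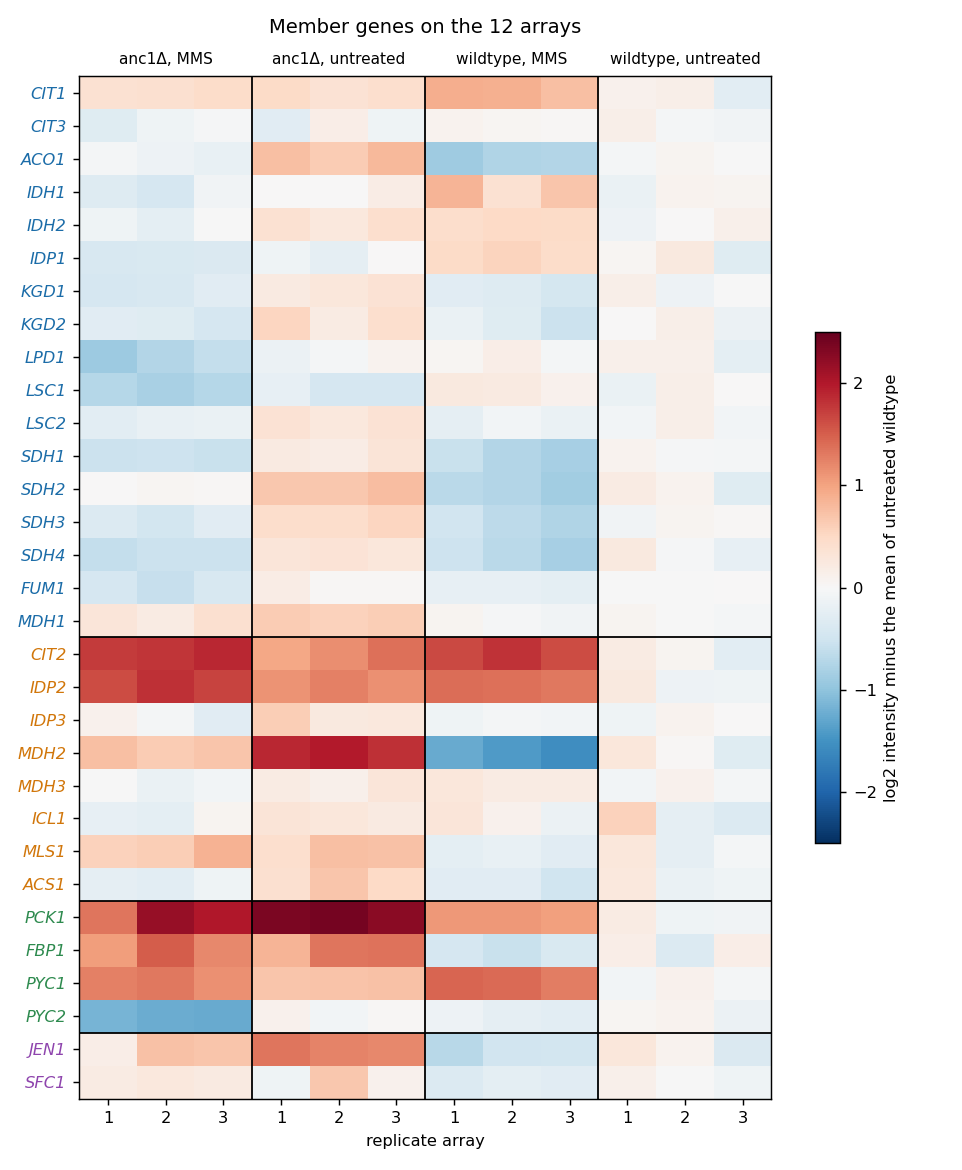
Log2 intensity of the 31 genes (rows, grouped by role) on each of the 12 arrays (columns, 3 replicates a group), relative to the mean of untreated wildtype. PCK1 and MDH2 are the darkest red genes in untreated anc1Δ, the SDH genes turn blue in MMS-treated wildtype, and PYC2 is strongly blue only on the 3 arrays of MMS-treated anc1Δ.

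All 6 genes that were lower in wildtype were also among the 12 that were lower in anc1Δ, so that they make up all of the first list and 6 of 12 of the second. How often a gene of the whole array that was lower in wildtype was also lower in anc1Δ was not counted. The overlap is therefore not shown to be particular to the set. The group means of the 2 comparisons share no array, but both take the spread from 1 fit of all 12 arrays and are not separate tests. SDH1 had 249, 249 and 244 in anc1Δ with MMS, against 418, 408 and 447 without (log2 change -0.78, SE 0.09, adjusted p = 1.42e-05). SDH2 had 789, 809 and 800.1 with MMS, against 1242, 1239 and 1339 without (log2 change -0.67, SE 0.12, adjusted p = 4.35e-04). The anchors behaved alike, with SDH3 at 827, 766 and 864 with MMS, against 1429, 1430.2 and 1535 without, and SDH4 at 545, 567 and 564 with MMS, against 1014, 1041 and 992 without. Replicates were close together in all 4 genes, and none had overlapping groups. ACO1 had 1112, 1045 and 1014 with MMS, against 1927, 1769 and 2013 without (log2 change -0.85, SE 0.09, adjusted p = 5.11e-06), which brought it to about the level of untreated wildtype. MDH2 had 1671, 1542 and 1605 with MMS, against 3656, 3904 and 3522 without (log2 change -1.20, SE 0.13, adjusted p = 7.26e-06), and stayed above every wildtype array.

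The other 6 lower genes were not called in wildtype. Of these, KGD1, KGD2, ACS1 and JEN1 were nevertheless lower on every treated wildtype array than on any untreated one. Their folds were below the limit there, with log2 changes of -0.35, -0.34, -0.36 and -0.54. The difference in response between the strains was called for LPD1 and PYC2 but not for KGD1, KGD2, ACS1 or JEN1. KGD1 (YIL125W) and KGD2 (YDR148C) encode the first components of 2-oxoglutarate dehydrogenase, and LPD1 (YFL018C) the dihydrolipoamide dehydrogenase that this enzyme shares with pyruvate dehydrogenase. KGD1 had 553, 559.5 and 609 in anc1Δ with MMS, against 862, 902 and 942 without (log2 change -0.65, SE 0.09, adjusted p = 8.49e-05). KGD2 had 413, 403 and 375 with MMS, against 724, 574 and 669.9 without (log2 change -0.72, SE 0.12, adjusted p = 2.74e-04). LPD1 had 1124, 1273 and 1406 with MMS, against 1921, 2053 and 2245 without (log2 change -0.71, SE 0.12, adjusted p = 3.28e-04). In each of the 3 genes the treated arrays lay below all untreated ones. In wildtype KGD1 had 609, 590.4 and 541 with MMS, against 815, 675 and 728 without, which is also a separation without overlap but below the fold limit, while the wildtype arrays of LPD1 overlapped (2177, 2365 and 2036 with MMS, 2302, 2296 and 1792 without).

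PYC2 showed the largest fall of the set in anc1Δ, close to that of MDH2. It had 459, 437 and 431 in anc1Δ with MMS, against 1104, 980.2 and 1046 without, a fold of 2.36 (log2 change -1.24, SE 0.09, adjusted p = 2.35e-07). Its 3 treated anc1Δ arrays were the lowest of all 12, and the other 9 lay close together at 858 or more. ACS1 had 109, 105 and 118 in anc1Δ with MMS, against 168, 204 and 180.0 without (log2 change -0.73, SE 0.12, adjusted p = 2.82e-04). JEN1 had 37.8, 56.2 and 54.9 with MMS, against 85.1, 79.7 and 77.3 without (log2 change -0.72, SE 0.17, adjusted p = 0.00344), and was no longer called without anc1 MMS replicate 1, its lowest array (-0.54), or in the LPE test with all arrays (-0.54). CIT2, the gene that was higher, had 562, 583 and 616 with MMS, against 329.6, 373 and 437 without (log2 change 0.64, SE 0.13, adjusted p = 0.00124), and fell below the fold limit without anc1 untreated replicate 1 (0.54). IDP2 was just short of the limit and was called without anc1 MMS replicate 1 (0.59) or anc1 untreated replicate 2 (0.59).

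**Figure D3:**
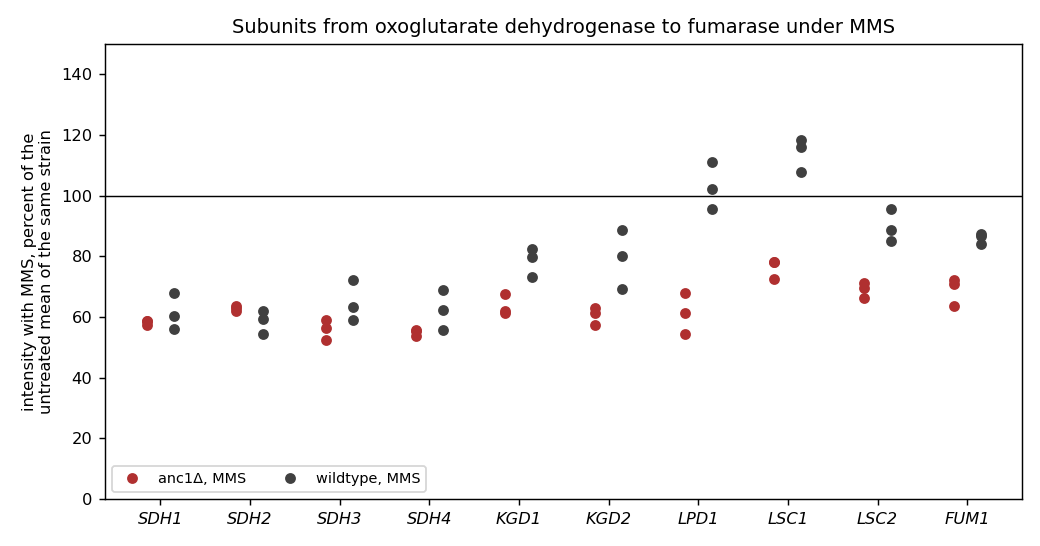
Intensity with MMS on each of 3 arrays a strain, as a percent of the mean of the untreated arrays of the same strain (y axis), for succinate dehydrogenase, 2-oxoglutarate dehydrogenase, succinyl-CoA ligase and fumarase (x axis). The SDH points of the strains lie close together, between 52.3 and 63.5% in anc1Δ and between 54.4 and 72.1% in wildtype, while LPD1 is at 54.2 to 67.8% in anc1Δ and at 95.6 to 111% in wildtype.

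The response to MMS differed between the strains in 10 of the 31 genes, and each of the 10 differences, anc1Δ minus wildtype, was negative by limma. At an unadjusted p under 0.05 0 positive differences were found among the 31. Over all genes 14.2% had a called negative difference and 9.58% a positive one, so that the members were above this share on the negative side. The 10 were CIT1, CIT2, IDH1, IDH2, IDP1, IDP2, LPD1, PCK1, PYC1 and PYC2. These include all 6 genes that were higher in wildtype under MMS, a count that is not independent of that comparison, because the difference uses the same wildtype arrays. The median difference was -0.38 over the set and -0.08 over all genes.

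For CIT2, IDP2 and PYC1 the treated arrays lay above the untreated ones in both strains, by more in wildtype. The difference in log2 response was -1.06 for CIT2 (SE 0.18, adjusted p = 0.00129 from limma), -0.82 for IDP2 (SE 0.15, adjusted p = 0.00187) and -0.86 for PYC1 (SE 0.12, adjusted p = 3.37e-04). All 3 were called higher in anc1Δ without MMS, and none was with MMS. CIT2 had 562, 583 and 616 in anc1Δ with MMS, against 526, 584 and 521 in wildtype with MMS, with overlapping arrays. PYC1 had 1151, 1189.8 and 1062 in anc1Δ with MMS, against 1313, 1280.2 and 1166 in wildtype with MMS, and overlapped only at the edge. IDP2 had 145, 167 and 151 in anc1Δ with MMS, against 124, 122 and 117 in wildtype with MMS, above without overlap but not called.

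PCK1 had the largest difference of the set, -1.56 (SE 0.24, 95% interval -2.09 to -1.03, adjusted p = 6.24e-04 from limma). Its arrays with MMS gave 204, 367 and 325 in anc1Δ, against 173, 171 and 165 in wildtype. Replicate 1 of treated anc1Δ was far below the other two, and over all left-out arrays and other settings the difference ranged from -1.73 to -1.31. In anc1Δ all treated arrays lay below the untreated ones (417, 425 and 390.5), whereas in wildtype all lay above, so that the directions opposed, although the lower level in anc1Δ was called only without anc1 MMS replicate 2 (-0.67).

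Of the enzymes that make citrate or oxidize isocitrate in the matrix, CIT1, IDH1, IDH2 and IDP1 differed in response, while no difference was called for CIT3 or for aconitase (ACO1), which links these steps. CIT1 had 1994, 2029.8 and 2113 in anc1Δ with MMS and 2117, 1954 and 2051 without, overlapping, against a rise in wildtype, and the difference was -0.85 (SE 0.15, adjusted p = 0.00162 from limma). IDH1 had 395, 369 and 463 in anc1Δ with MMS and 498, 494 and 561 without, and its difference was -0.98 (SE 0.19, adjusted p = 0.00225). IDH2 had 2019, 1853 and 2184 in anc1Δ with MMS and 2832, 2641 and 2917 without, and its difference was -0.94 (SE 0.13, adjusted p = 3.28e-04). Both subunits were thus below their untreated level on every treated anc1Δ array and above it on every treated wildtype array. IDP1 followed them, at 448, 454 and 463 with MMS and 550.1, 506 and 599.6 without in anc1Δ, with a difference of -0.77 (adjusted p = 0.00603).

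**Figure D4:**
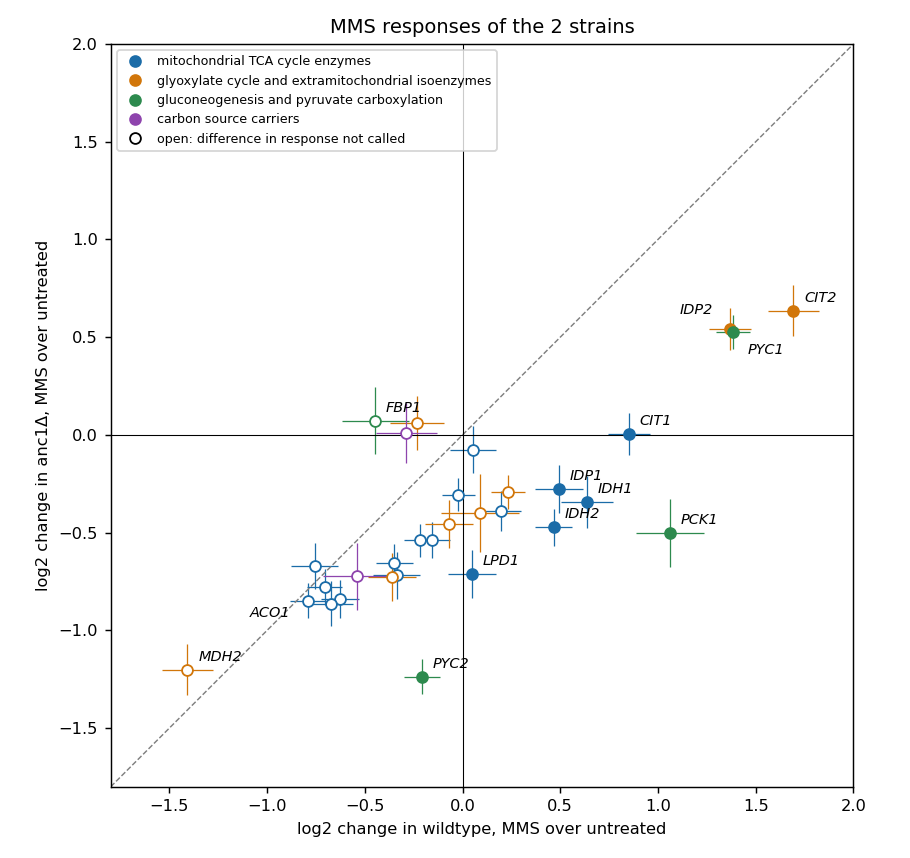
MMS response of each of the 31 genes in wildtype (x axis) and in anc1Δ (y axis), as log2 change with SE bars, 3 arrays a group. Filled points differ between the strains by the interaction test, and all 10 lie below the dashed line of equal response, with PCK1 at 1.06 in wildtype and MDH2 and ACO1 near the line.

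For LPD1 and PYC2 a lower level with MMS was called in anc1Δ and no change was called in wildtype. The difference was -0.76 for LPD1 (SE 0.17, adjusted p = 0.00613 from limma) and -1.03 for PYC2 (SE 0.13, adjusted p = 1.17e-04). LSC1 (YOR142W) was next to them at -0.58 (adjusted p = 0.00962), a fold just short of the limit, and was called in 7 of the 12 fits that leave out an array. It had 763, 708 and 763 in anc1Δ with MMS and 1479, 1451 and 1348 in wildtype with MMS. No difference was called for ACO1, MDH2 or any SDH gene, whose 95% intervals were -0.32 to 0.22 for ACO1, -0.19 to 0.61 for MDH2 and -0.28 to 0.45 for SDH2.

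Under MMS 7 genes were higher in anc1Δ than in wildtype and 5 were lower. Over all genes 10.9% were higher and 18.4% lower, so that the members were above this share on the higher side and near it on the lower. In 12 of the 31 the anc1Δ arrays all lay above the wildtype arrays and in 10 all below, against 23.5% and 48.5% of all genes. The higher ones, ACO1, SDH2, MDH2, MLS1, PCK1, FBP1 and JEN1, were all among the 11 called higher without MMS. The matching overlap over all genes was not counted, so that it is not shown to be particular to the set. The group means of the 2 comparisons share no array, but the untreated arrays enter the estimate of the spread under MMS. MDH2 had 1671, 1542 and 1605 in anc1Δ, against 414, 373 and 336 in wildtype, a fold of 4.31 (log2 change 2.11, SE 0.13, adjusted p = 5.72e-08). FBP1 had 43.5, 60.2 and 48.3 in anc1Δ, against 15.8, 14.3 and 16.2 in wildtype (log2 change 1.70, SE 0.17, adjusted p = 4.13e-06), with wildtype at percentile 17.5. MLS1 had 67.8, 70.0 and 83.4 in anc1Δ, against 38.4, 39.9 and 37.5 in wildtype (log2 change 0.93, SE 0.14, adjusted p = 9.97e-05). JEN1, PCK1, SDH2 and ACO1 had log2 changes of 1.08, 0.77, 0.79 and 0.67. In all 7 genes the arrays of the strains did not overlap. The dim SFC1 was called with each array centred on its median (0.65).

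The 5 lower genes were IDH1, IDP1, LPD1, LSC1 and PYC2, none of which was called without MMS. PYC2 had 459, 437 and 431 in anc1Δ, against 939.8, 875 and 858 in wildtype (log2 change -1.01, SE 0.09, adjusted p = 1.64e-06). LSC1 had a log2 change of -0.94 (SE 0.10), IDH1 of -0.91 (SE 0.13), IDP1 of -0.88 (SE 0.12) and LPD1 of -0.79 (SE 0.12). IDH2, at -0.58 (adjusted p = 2.01e-04 from limma), was just short of the fold limit. IDH2 was called by the LPE test (-0.59), with the arrays quantile-normalized again (-0.67) and without wildtype MMS replicate 1, anc1 MMS replicate 1 or anc1 MMS replicate 3 (-0.60, -0.59 and -0.64).

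**Figure D5:**
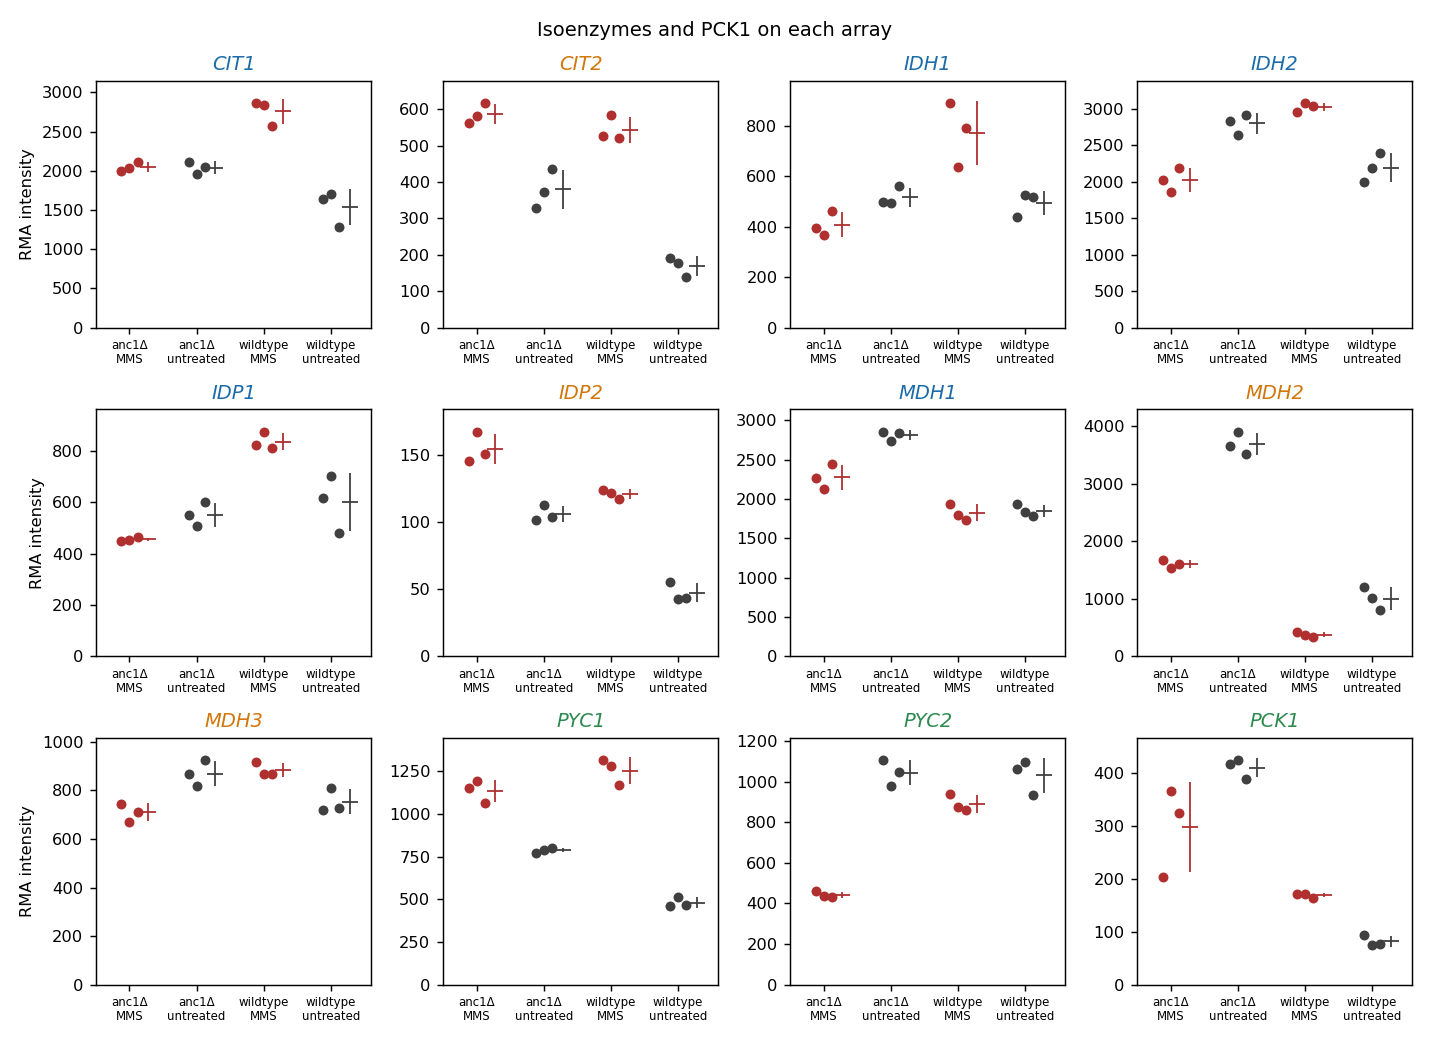
RMA intensity (y axis, linear, from 0) of 12 genes on each array, with the mean and SD of each group of 3 beside the points, in MMS-treated anc1Δ, untreated anc1Δ, MMS-treated wildtype and untreated wildtype (x axis). MDH2 is high in untreated anc1Δ and lowest in treated wildtype, while MDH1 and MDH3 vary less, and PYC1 and PYC2 take different courses.

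Isoenzymes of one reaction thus followed different courses over the 4 groups. Among the malate dehydrogenases MDH2 had group means of 1606 ± 64.7, 3694 ± 194, 374 ± 38.9 and 1002 ± 196 in treated anc1Δ, untreated anc1Δ, treated wildtype and untreated wildtype (SD, n = 3). MDH1 had 2279 ± 159, 2812 ± 64.4, 1823 ± 108 and 1848 ± 77.5 in the same order, and MDH3 709.6 ± 36.8, 869.8 ± 52.6, 884 ± 28.1 and 753 ± 51.5. Levels of different probe sets are not comparable with each other, and only the course of each is meant. Of the citrate synthases, CIT3 (YPR001W), which also acts in propionate metabolism, stayed between percentile 19.6 and 25.5 in all groups and was called in no comparison. The same was true of ICL1, IDP3, SFC1, FUM1 (YPL262W), LSC2 (YGR244C), MDH3 and IDH2 in the strain and MMS comparisons, of which only IDH2 was called for the difference in response. FUM1, fumarase, had 1095, 979.5 and 1113 in anc1Δ with MMS, against 1656, 1491 and 1483 without, and LSC2, the beta subunit of succinyl-CoA ligase, 395, 416 and 426 with MMS, against 613, 574 and 607 without, both lower on every treated array at folds under the limit.

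Regulators and neighbouring steps of the pathway were read from lists chosen together with the members, with earlier results of these data known. The counts of these lists, and of those under other observations, are therefore descriptive beside the shares of all genes. Among 24 regulators of carbon source use and retrograde signalling, HAP4, the activating subunit of the CCAAT-binding complex that drives respiratory genes, changed by 1.28 in untreated anc1Δ over wildtype (adjusted p = 0.0049 from limma), CAT8, the activator of gluconeogenic genes, by 0.78 and the glucose repressor gene MIG1 by 1.14. RTG2, the sensor of the retrograde pathway, changed with MMS by 0.85 in anc1Δ and 1.19 in wildtype. Of the other retrograde genes listed, MKS1 changed with MMS by 1.16 in wildtype. RTG3 was lower in anc1Δ than in wildtype under MMS (-0.95), and without MMS its change of -0.52 was not called. LST8 was also lower in anc1Δ under MMS (-0.66), a call lost with median centring (-0.54). HXK2, the hexokinase that also acts in glucose repression, changed with MMS by -2.03 in anc1Δ and -1.57 in wildtype. The response of MIG1 differed by -1.67. CAT8 was dim, with means of 35.8 in untreated anc1Δ and 20.8 in untreated wildtype. SNF1 was lower in untreated anc1Δ than in wildtype (-0.64), a call lost without anc1 untreated replicate 3 (-0.50) and in the LPE test (-0.58).

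Over the 24 regulators, 4 were higher and 1 lower in untreated anc1Δ, against 11.1% and 12.4% of all genes. The 1 became 2 without wildtype untreated replicate 3 and 0 without anc1 untreated replicate 3. With MMS, 4 were higher and 7 lower in anc1Δ, against 16% and 15.7%, and 9 higher and 3 lower in wildtype, against 27.7% and 20.8%. The 4 higher in anc1Δ became 2 without anc1 MMS replicate 2 or anc1 untreated replicate 3, with median centring, after a further quantile normalization and in the LPE test. The response was lower in anc1Δ in 6, against 14.2%, which became 3 without wildtype MMS replicate 1 or 2 or anc1 MMS replicate 1. Between the strains under MMS 1 was higher and 4 lower, against 10.9% and 18.4%, and the 4 became 7 without wildtype MMS replicate 3 and 2 with median centring.

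Pyruvate enters the matrix through the mitochondrial pyruvate carrier and is turned into acetyl-CoA by pyruvate dehydrogenase. Among 11 genes for these steps, MPC3, the pyruvate carrier gene of respiring cells, changed by 2.46 in untreated anc1Δ over wildtype (adjusted p = 0.00235 from limma) and by -2.03 with MMS in anc1Δ. Without MMS its intensity was 1876 ± 98.2 in anc1Δ and, with wide scatter, 392 ± 224 in wildtype (SD, n = 3). MPC2, used in fermenting cells, changed by 0.82 with MMS in wildtype, and its response differed by -1.13 between the strains. Over the list 2 were higher in untreated anc1Δ (11.1% of all genes), but only 1 without wildtype untreated replicate 2 or 3 or anc1 untreated replicate 2 or 3 and with averaged probe sets. With MMS 1 was higher and 4 lower in anc1Δ (16% and 15.7%), and 3 were higher and 1 lower in wildtype (27.7% and 20.8%, with 2 lower without wildtype untreated replicate 3). Under MMS 3 were lower in anc1Δ than in wildtype (18.4% of all genes, with 5 without wildtype MMS replicate 3), and 3 had a lower response in anc1Δ (14.2%).

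Carriers of cycle intermediates join the matrix to the cytosol. Of 8 listed genes, ODC1, a 2-oxoglutarate carrier, changed by 0.78 in untreated anc1Δ over wildtype and OAC1, the oxaloacetate carrier, by -1.30, the 1 higher and 1 lower call of the list (11.1% and 12.4% of all genes), with 2 lower without wildtype untreated replicate 1 and in the LPE test. With MMS 4 were lower in anc1Δ (15.7%) and 3 in wildtype (20.8%). MAE1, the mitochondrial malic enzyme, which makes pyruvate from malate and is no carrier although the list holds it, changed by -1.82 in anc1Δ and -1.98 in wildtype. Under MMS 3 were lower in anc1Δ than in wildtype (18.4%) and 1 was higher (10.9%), a call lost without wildtype MMS replicate 2 or anc1 MMS replicate 2. The response differed in 1, ODC2 (-1.48), against 14.2% of all genes.

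Among 11 measured paralogues and assembly factors of the members, the succinate dehydrogenase assembly factor genes SDH5, SDH6 and SDH8 changed by 0.79, 1.04 and 1.17 in untreated anc1Δ over wildtype (adjusted p = 2.40e-04 from limma for SDH8). SDH6 changed with MMS by -0.71 in anc1Δ and -0.62 in wildtype (-0.57 without wildtype untreated replicate 3, under the fold limit), the direction of the 4 SDH genes. SDH8 changed by 0.93 in wildtype, and its response differed by -0.91 between the strains. ICL2, the mitochondrial methylisocitrate lyase, changed by -0.86 in anc1Δ and -0.81 in wildtype. Over the list, 5 were higher and 1 lower in untreated anc1Δ (11.1% and 12.4% of all genes). With MMS 1 was higher and 2 lower in anc1Δ (16% and 15.7%), and 3 were higher and 2 lower in wildtype (27.7% and 20.8%), with 1 lower in wildtype without wildtype untreated replicate 3. In 3 the response was lower in anc1Δ (14.2%), and between the strains under MMS 1 was higher and 3 were lower (10.9% and 18.4%), where the 1 became 2 or 3 without anc1 MMS replicate 2, with either further normalization and in the LPE test.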

How the data were processed

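Total RNA was hybridized to 12 Affymetrix YG-S98 arrays (1 per sample). The authors normalized them with RMA, in a version and over a joint set of arrays that the sources do not state, and deposited linear intensity values of 9335 probe sets. The design had assumed log2 values, so log2 was taken first, and 60 control probe sets were dropped. Of the 9275 tested, 6504 named 1 gene (5656 genes, all matched by Entrez identifier to RefSeq), 328 named several and 2443 none. The probe set with the highest mean stood for a gene, and every member had 1. The authors' present and absent calls were not used. Gene sequences are not shown.

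The untreated strains were compared with limma 3.58.1 (R 4.3.3) on their 6 arrays. The other comparisons used all 12 arrays with 1 mean a group. As an alternative, the LPE test named in the methods was rewritten, with 100 bins. With 3 arrays against 3 an exact permutation test cannot go below p = 0.1, so that only separation of the arrays is given. Other alternatives were each array left out, the replicate block, median centring, quantile normalization, dropping the dimmest 25%, an intensity-dependent prior variance, no fold limit or 2, other arrays in the fit and averaging the probe sets of a gene. Deviations of same-numbered arrays correlated with r of 0.373, 0.24 and 0.167 between treated and untreated anc1Δ, a hint from the data alone, and at least 1 of 3 pairs was below 0.1 in each other comparison. The fits were checked on simulated data. All members are named, with up to 4 called genes of each neighbouring list and comparison by smallest adjusted p. The members and lists were chosen with earlier results of these data known.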

Additional observations from a re-analysis of the deposited data

Results flagged for a closer look

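The difference between the MMS responses of the strains, anc1Δ minus wildtype, passed the interaction test of limma with a fold of at least 1.5 in 10 of the 31 genes. As differences of log2 responses these were -0.85 for CIT1, -1.06 for CIT2, -0.98 for IDH1, -0.94 for IDH2, -0.77 for IDP1, -0.82 for IDP2, -0.76 for LPD1, -1.56 for PCK1, -0.86 for PYC1 and -1.03 for PYC2. None of the 10 calls was lost when any single array was left out or under another normalization, the replicate block, the filter on dim probe sets, the intensity-dependent prior variance or averaging the probe sets of a gene. The actin 3' to 5' ratio moved with MMS in both strains, and its part in these differences was not tested. Groups of 3 arrays were too small to be tested for single deviating arrays.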

How the results depend on the processing

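Of 60 changes of single members, namely all calls and the 2 just short of the fold limit, none changed sign, and 50 stayed on their side of the threshold under all alternatives that keep the fold limit of 1.5. The other 10 changed in 28 of 1112 alternative fits. Of the 117 leading calls of the neighbouring lists (up to 4 a list and comparison, not all of them in the text) none changed sign, and 2089 of 2149 such fits kept the call. Without a fold limit the set had 17 higher genes between the untreated strains (17.3% of all genes), 11 higher and 9 lower between the strains under MMS (19.2% and 40.6%), 3 higher and 21 lower with MMS in anc1Δ (29.3% and 29.6%), 9 higher and 12 lower with MMS in wildtype (41.2% and 32.2%) and 13 lower responses in anc1Δ (21.6%). With a limit of 2 these counts were 6, 3, 1, 0, 2, 4, 1 and 3. Leaving out arrays in turn gave 0 to 2 higher genes with MMS in anc1Δ, and 0 to 1 higher responses in anc1Δ, FBP1 without wildtype untreated replicate 2 (0.69). ICL1 gained a lower response without wildtype untreated replicate 1 (-0.77). The other counts of members stayed within 1.5 times under all alternatives that keep the fold limit of 1.5. With the replicate block the counts were unchanged, at 11 higher between the untreated strains, 7 higher and 5 lower between the strains under MMS, 1 higher and 12 lower with MMS in anc1Δ, 6 and 6 with MMS in wildtype and 10 lower responses. Only between treated and untreated anc1Δ did all 3 same-numbered pairs deviate together. Between treated and untreated wildtype r was 0.0768, -0.125 and 0.249, and 1 pair of the untreated strains had -0.465. Whether same-numbered arrays share a culture is not stated, and these few correlations cannot decide it. Centring each array on its median moved the medians of the arrays by 0.12 (log2, MMS over untreated) in wildtype and by -0.13 between the strains under MMS, and changes are given without subtracting this shift. The dim filter left out CIT3 and SFC1, which give no value there. On simulated data limma recovered 34.9% of 1.5-fold and 86.0% of 2-fold changes between the untreated strains. A planted change of exactly 1.5-fold sits on the fold limit, so that many must fall short of it whatever the spread. The simulation also changed a smaller share of probe sets than was called in the data. The 34.9% thus does not measure the sensitivity of the fit, and true changes near the limit can be missed.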

Other observations

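Other genes handle the acetyl units that feed these cycles. Of 14 genes of acetyl unit and C2 metabolism, 9 were called higher in untreated anc1Δ over wildtype, with a median log2 change of 1.06, against 11.1% of all genes called higher. ACH1, the mitochondrial acetyl-CoA transferase, changed by 1.84, ALD4, the mitochondrial aldehyde dehydrogenase, by 1.88 and the carnitine carrier gene CRC1 by 1.59 (adjusted p = 4.84e-05, 4.00e-05 and 9.72e-05 from limma). With MMS, 7 were lower in anc1Δ (15.7% of all genes), and 4 were higher and 3 lower in wildtype (27.7% and 20.8%), with 2 higher without wildtype untreated replicate 3 and in the LPE test. The response was lower in anc1Δ than in wildtype in 10 of the 14, against 14.2% of all genes. YAT2, a carnitine acetyltransferase, changed by 2.02 in wildtype and differed by -1.81 in response, and ALD4 differed by -1.67. Between the strains under MMS 5 were higher and 3 lower, against 10.9% and 18.4%.

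The GID ubiquitin ligase marks Fbp1, Icl1 and Mdh2 for degradation when glucose returns. GID7 changed with MMS by 1.20 in anc1Δ and 2.35 in wildtype, and the difference was -1.15 (adjusted p = 8.73e-04 from limma). Of 9 listed genes of this ligase and its partners, 3 were higher with MMS in anc1Δ, against 16% of all genes, and 6 in wildtype, against 27.7%. Between the untreated strains 5 were higher in anc1Δ, against 11.1%, which became 2 without wildtype untreated replicate 3 and 3 without anc1 untreated replicate 2 or 3 and in the LPE test. The response was lower in anc1Δ in 5, against 14.2%, and in 3 without wildtype MMS replicate 1, wildtype untreated replicate 3 or anc1 MMS replicate 2 and with median centring. Under MMS 1 was lower in anc1Δ than in wildtype, against 18.4%.

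Of 12 genes of peroxisomal beta-oxidation, CRC1 being also in the list of acetyl unit metabolism, 3 were higher and 2 lower in untreated anc1Δ over wildtype, against 11.1% and 12.4% of all genes. The 2 lower became 1 without wildtype untreated replicate 1, anc1 untreated replicate 1 or 2 or the dim probe sets, and 0 without anc1 untreated replicate 3 and with median centring. POT1, the thiolase, changed by 1.51 in untreated anc1Δ and by 1.19 between the strains under MMS. There 2 were higher and 4 lower, against 10.9% and 18.4%, with 1 higher without the dim probe sets or with averaged probe sets and 2 lower with median centring. With MMS 1 was lower in anc1Δ, against 15.7%, which became 0 without anc1 MMS replicate 2 or the dim probe sets and 2 without anc1 MMS replicate 1 or 3 or anc1 untreated replicate 1 and with median centring. In wildtype 2 were higher with MMS, against 27.7%, and 1 without the dim probe sets, and 4 had a lower response in anc1Δ, against 14.2%.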
